A study of Homo sapiens with 8 samples.

Results

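The genes described here are the protein-coding neighbours of PDCD4 on the long arm of chromosome 10. Every protein-coding gene whose lowest coordinate lay between 102 and 123 Mb of chromosome 10 (GRCh37) was taken, leaving out PDCD4 itself, DUSP5 and SHOC2. This gave 135 genes of the 56632 in the deposited table, chosen by position and not by any measured value. Of these, 109 had enough counts to be tested. The other 26 were hardly expressed: 21 had fewer than 10 counts in every library, 11 had 0 counts in all 8 libraries, and the highest count among the 26 was 37, for the pancreatic lipase gene PNLIP in M1 replicate 1. They include the developmental transcription factors PAX2, TLX1, PITX3, VAX1 and EMX2.

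PDCD4 encodes a tumour suppressor that binds the helicase eIF4A and so holds back the start of translation. A gene can fall alone, when its own promoter or transcript stability changes, or together with its neighbours, when a stretch of chromosome is lost or silenced. Losses on the long arm of chromosome 10 are common in several carcinomas. The levels of the neighbours, set out by their distance from PDCD4, show which of these patterns of expression the libraries hold, although RNA levels alone cannot count DNA copies.

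The 8 libraries were poly A+ RNA-seq of 4 human mammary epithelial lines of 1 lineage, with 2 biological replicates each. M1 is MCF10A, an immortalized line that forms no tumours. M2 is MCF10AT1k.cl2, derived from it with an activated HRAS, and M3 (MCF10Ca1h) and M4 (MCF10CA1a.cl1) came from carcinomas that M2 cells formed as xenografts. All were grown in Matrigel for 8 days in medium with 2% horse serum, hydrocortisone, cholera toxin and insulin, and M1 and M2 also received 10 ng/ml EGF, which M3 and M4 did not. Each stage is thus 1 cell line, and in M3 or M4 against M1 the line and the absence of EGF cannot be told apart. Fewer cells of a kind and less RNA per cell cannot be told apart either.

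Total counts ran from 69669970 to 107350344 per library. All 8 mammary epithelial markers (KRT5, KRT14, KRT17, TP63, KRT18, KRT8, EPCAM and CDH1) were above 1 CPM in every library, and summed to between 8098 and 15164 CPM. The 5 fibroblast markers summed to between 6.43 and 74.3 CPM. Their highest single value was 60.2 CPM, for DCN. Of the 5, 1 was above 1 CPM in every library, and COL1A2 had 0 counts in all libraries. The 2 endothelial markers in the table summed to at most 0.326 CPM, and the 4 blood markers to between 4.06 and 51.4 CPM, nearly all CD68. Spearman's rho between replicates, across 13495 genes, was 0.971 for M1, 0.998 for M2, 0.977 for M3 and 0.986 for M4. The study's own gene lists place the library labelled M1 replicate 2 in M2 and the library labelled M2 replicate 1 in M1. The sample labels were followed. Across the same genes, rho was 0.960 between M1 replicate 1 and M2 replicate 1 and 0.962 between M1 replicate 2 and M2 replicate 2, the pairs that the exchange would make replicates, both lower than in the labelled pairs. The main results against M1 are also given with these 2 libraries exchanged. M2, M3 and M4 were all compared with the same M1 libraries, so these comparisons are not independent of each other.

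PDCD4 itself (chr10:112631553-112659764, plus strand) is the point of reference and was chosen by the study for its fall. Its level was 299 and 176 CPM (counts scaled to library size) for the M1 libraries, 156 and 159 for M2, 78.3 and 56.6 for M3, and 51.0 and 58.8 for M4. All M3 and M4 libraries lay below all M1 and M2 libraries. The log2 fold change against M1 was -0.59 in M2, -1.82 in M3 and -2.11 in M4, with standard errors of 0.260, 0.267 and 0.270. The M3 and M4 values were called (adjusted p = 0.00405 and 0.00147). The M2 value was not (adjusted p = 0.220), and it was -0.16 without M1 replicate 1. With the libraries exchanged the 3 values were -0.44, -1.75 and -2.05, and the M3 value was then not called (adjusted p = 0.0550). PDCD4-AS1, the antisense transcript at its start, went from 2.18 and 1.52 CPM in M1 to 0.132 and 0.128 in M4, a log2 fold change of -3.81 that was -3.46 with the libraries exchanged. Its counts and those of PDCD4 may share reads, since the sources used here do not say whether strand was used.

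The region as a whole did not fall with PDCD4. In M4 the median log2 fold change of the 109 tested members was 0.14 (quartiles -0.48 and 0.56), against 0.02 over all 14088 protein-coding genes tested, and 64 of the 109 were above 0. In M3 the member median was 0.03 against 0.02, and in M2 0.03 against -0.01. Against M1, the other 433 tested coding genes of chromosome 10 had medians of 0.05 for M2, 0.07 for M3 and 0.22 for M4. The M4 median was set by 1 library more than the other: relative to the M1 mean, on log2(CPM + 0.1), the members' median was -0.04 in M4 replicate 1 and 0.23 in M4 replicate 2, and without replicate 2 the fitted median was -0.02. With the libraries exchanged the medians were -0.02 in M2, 0.03 in M3 and 0.10 in M4.

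**Figure D1:**
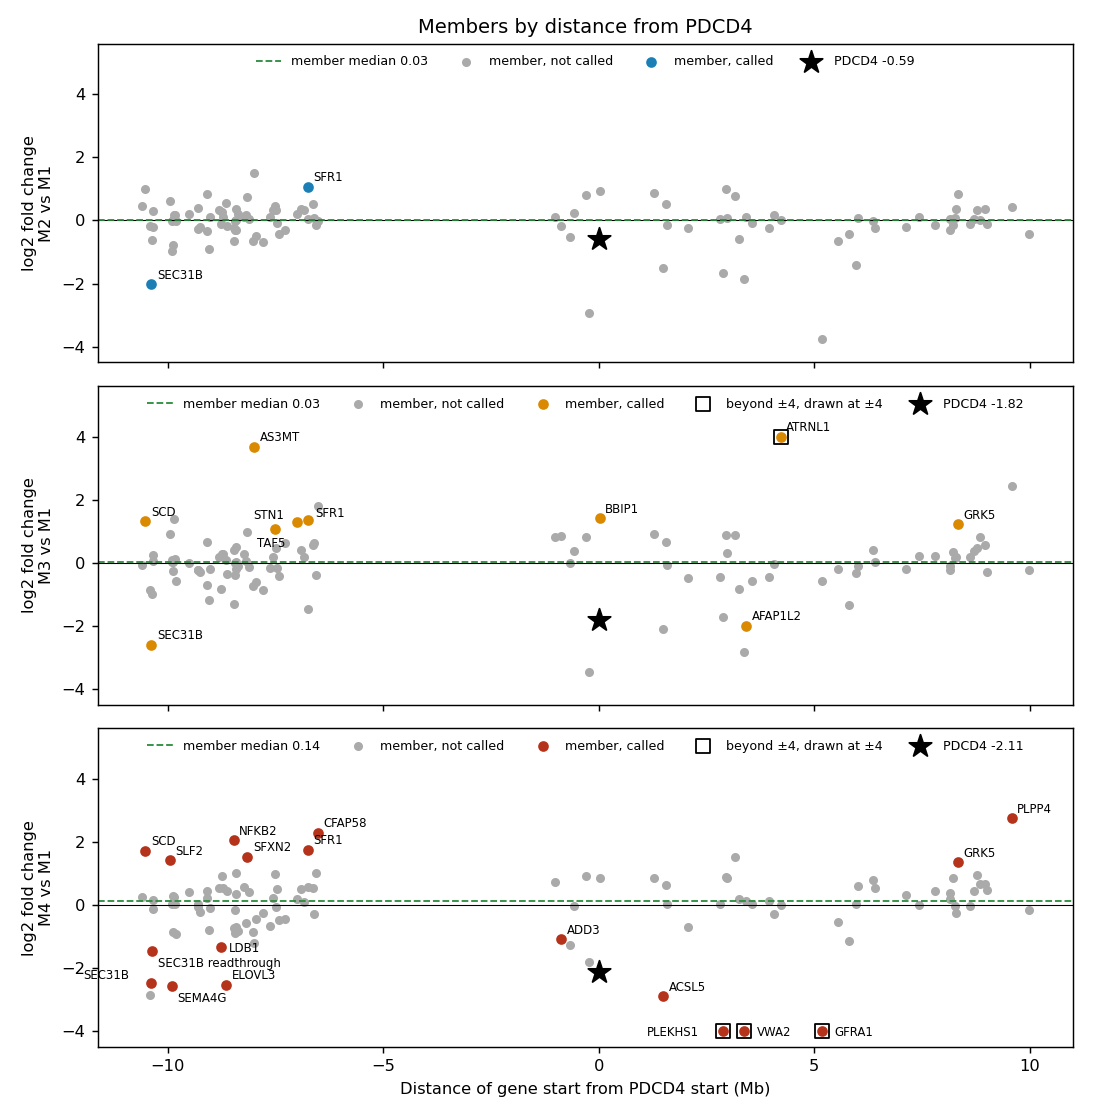
Log2 fold change of the 109 tested members (y axis) against the distance of their start from the PDCD4 start (x axis, Mb), in M2, M3 and M4 against M1. Coloured points were called (adjusted p under 0.05 and absolute log2 fold change above 1), the dashed line is the member median and the star is PDCD4, which fell to -2.11 in M4 while the member median stayed at 0.14.

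Few members fell as far as PDCD4. In M4, 8 of 109 (7.34%) had a log2 fold change at or below that of PDCD4, and over all tested protein-coding genes the share was 7.60%. They were GFRA1, VWA2, PLEKHS1, ACSL5, WNT8B, SEMA4G, ELOVL3 and SEC31B, and none of them starts within 1 Mb of PDCD4. WNT8B was not called. In M3 they were 5 (4.59%, against 5.64% of coding genes), namely RBM20, VWA2, SEC31B, ACSL5 and AFAP1L2. Of these, RBM20 starts within 1 Mb of PDCD4, and RBM20, VWA2 and ACSL5 were not called in M3. In M2, where the PDCD4 change of -0.59 was not called, they were 15 (13.8%, against 17.5%), with RBM20 again the 1 within 1 Mb. The M4 count was 5 with the libraries exchanged and also 5 without M1 replicate 2. The M2 count rose to 44 without M1 replicate 1, the library with the highest PDCD4 level. The M3 count was 11 without M1 replicate 1, 9 without M3 replicate 1 and 8 without M3 replicate 2.

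**Figure D2:**
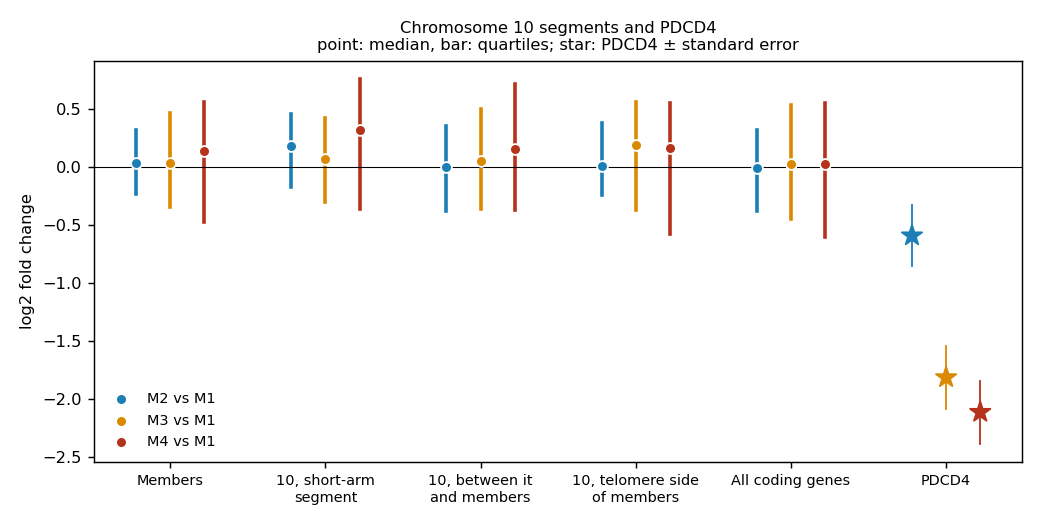
Median log2 fold change against M1 (points) with quartiles (bars) for the members, for 3 other segments of chromosome 10 and for all tested protein-coding genes, with PDCD4 as stars with its standard error. Member medians were 0.03, 0.03 and 0.14 in M2, M3 and M4, and the PDCD4 values of M3 and M4 lie below the lower quartile of every segment.

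The nearest tested members moved in different directions. Within 1 Mb of PDCD4 only 6 members were tested (ADD3, MXI1, SMNDC1, SMC3, RBM20 and BBIP1), with a median log2 fold change of 0.02 in M2, 0.59 in M3 and -0.57 in M4. Within 2 Mb the 11 tested members had an M4 median of 0.02, within 5 Mb the 24 had 0.02, and the 85 farther out had 0.18. ADRA2A, the one further member within 1 Mb, had too few counts to be tested.

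BBIP1, a small subunit of the BBSome that carries cargo to cilia, is the closest neighbour and meets PDCD4 tail to tail, with 1277 bases of exon shared on the opposite strand. Its levels were 5.39 and 5.86 CPM for M1, 10.7 and 10.6 for M2, 18.3 and 11.8 for M3, and 9.46 and 11.03 for M4. Every library of M2, M3 and M4 lay above both M1 libraries, the reverse of PDCD4. The log2 fold change was 1.42 in M3 (SE 0.248, adjusted p = 0.00763), a call, and 0.87 in M4 (adjusted p = 0.0313) and 0.93 in M2 (adjusted p = 0.0756), neither called. Exchanging the libraries left 0.90 in M3 (adjusted p = 0.328), 0.34 in M4 and 0.03 in M2. Because strand use is not stated, how the shared bases were divided between BBIP1 and PDCD4 is uncertain.

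On the centromere side, RBM20, a splicing factor of heart muscle, was barely expressed, at 0.556 and 0.281 CPM for M1, 0.098 and 0 for M2, 0.0631 and 0.0115 for M3, and 0.123 and 0.115 for M4. All later libraries lay below M1, yet no change passed the test (log2 fold change -1.80 in M4, SE 1.09, adjusted p = 0.248, and -1.43 after the exchange). SMC3, a ring subunit of cohesin, was 54.1 and 44.5 CPM for M1, 84.5 and 88.0 for M2, 72.2 and 99.9 for M3, and 71.7 and 115 for M4. SMC3 was thus higher in all 6 later libraries, by 0.92 in M4 (SE 0.251, adjusted p = 0.0272), below the fold threshold. It passed that threshold without M4 replicate 1, at 1.23, and was 0.43 with the libraries exchanged. SMNDC1, a splicing factor related to SMN, stayed between 24.6 and 38.9 CPM across all 8 libraries, with -0.04 in M4.

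MXI1, which competes with MYC for their partner MAX, was 39.5 and 50.05 CPM for M1, 29.8 and 32.5 for M2, 62.8 and 26.0 for M3, and 13.2 and 23.8 for M4. Both M4 libraries were the lowest of the 8, and the M3 libraries differed widely. The M4 change of -1.28 (SE 0.422) had an adjusted p of 0.0539 and was not called, whereas it was called by DESeq2 (-1.26, adjusted p = 0.00891) and by edgeR with total counts, without the low-count filter, with the filter at 10 counts and with only the 2 lines compared (-1.28 to -1.22). After the exchange it was -0.91, not called. ADD3, an adducin of the spectrin skeleton under the cell membrane, was 45.9 and 45.7 CPM for M1, 40.7 and 39.9 for M2, 73.1 and 91.1 for M3, and 18.4 and 24.5 for M4. It was therefore highest in M3 and lowest in M4, with no overlap between those lines. The M4 change was -1.09 (SE 0.179, adjusted p = 0.00383), and it was called also with the libraries exchanged (-1.01, adjusted p = 0.0297), but without M4 replicate 1 it was -0.89 and under the fold threshold. ADD3 lies 0.875 Mb from PDCD4 and was the 1 member within 1 Mb that fell past the call rule.

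On the telomere side, GPAM, which starts glycerolipid synthesis in mitochondria, was 11.02 and 13.6 CPM for M1, 22.6 and 22.9 for M2, 22.1 and 23.9 for M3, and 19.5 and 25.1 for M4. All later libraries were above M1, by 0.89, 0.90 and 0.86 on the log2 scale in M2, M3 and M4 (adjusted p = 0.0382, 0.0134 and 0.0114), short of the fold threshold. Without M1 replicate 2 or without M4 replicate 1 the M4 value passed it, at 1.02 and 1.03, and with the libraries exchanged it was 0.40. ACSL5, which activates long-chain fatty acids as acyl-CoA, was 9.61 and 19.5 CPM for M1, 4.99 and 5.25 for M2, 6.01 and 0.769 for M3, and 1.33 and 2.61 for M4. Both M4 libraries lay below both M1 and both M2 libraries, and the M4 change was -2.89 (SE 0.883, adjusted p = 0.0436). The call was lost without M1 replicate 2 (-2.29), without M4 replicate 1 (-2.47), without M4 replicate 2 (-3.43) and with the libraries exchanged (-1.89, adjusted p = 0.259).

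ACSL5 shares 144 bases of exon with ZDHHC6, a palmitoyltransferase of the endoplasmic reticulum, which was 27.3 and 34.9 CPM in M1 and 41.6 and 54.7 in M4. ZDHHC6 thus lay on the other side of M1 from ACSL5, with a log2 fold change of 0.63 (SE 0.180, adjusted p = 0.0321) that was not a call, and 0.44 after the exchange. VTI1A, a SNARE protein of the Golgi, was 32.1 and 27.8 CPM in M1 and 29.1 and 31.4 in M4, with 0.02 (SE 0.144). Its range over all 8 libraries was 26.7 to 32.1 CPM.

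**Figure D3:**
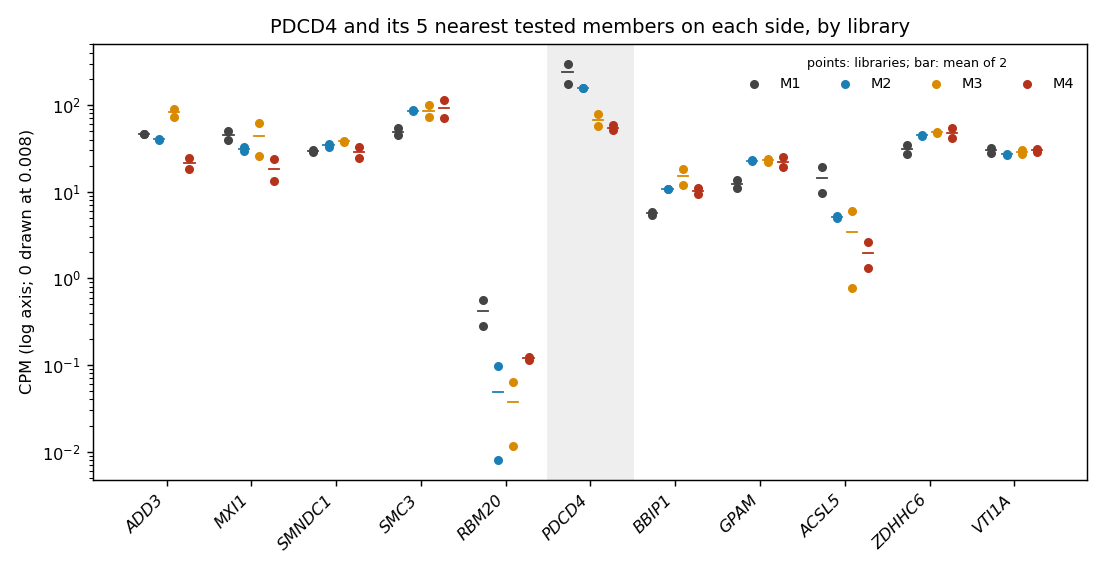
CPM (log axis) of PDCD4, shaded, and of the 5 nearest tested members on each side, ordered by position, with 1 point per library and a bar at the mean of 2. PDCD4 falls from 299 and 176 CPM in M1 to 51.0 and 58.8 in M4, BBIP1 and SMC3 are higher in all later libraries than in M1, ADD3 is highest in M3, and ACSL5 falls.

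Along the region, no 3-Mb stretch with tested members had an M4 median near that of PDCD4. From the centromere side the M4 medians were -0.07 (102 to 105 Mb, 45 members), 0.37 (105 to 108 Mb, 16), 0.34 (111 to 114 Mb, 8, the stretch that holds PDCD4), 0.02 (114 to 117 Mb, 16), 0.17 (117 to 120 Mb, 8) and 0.45 (120 to 123 Mb, 16). Between 108 and 111 Mb no member was tested. In M3 the same stretches had medians of -0.02, 0.43, 0.81, -0.46, -0.19 and 0.20, so the stretch around PDCD4 was the highest in M3. Members called in M4 lay in every stretch that held tested members. In M4, 5 of the 10 lower calls lay between 102 and 105 Mb, where 4 of the 8 higher calls also lay. Within 5 Mb of PDCD4, 4 of the 24 tested members were called in M4, ADD3, ACSL5, PLEKHS1 and VWA2, and these were lower. Of the 85 farther out, 8 were called higher and 6 lower, so all higher calls lay beyond 5 Mb. Over all genes tested, 11.2% were called lower and 9.48% higher. The ACSL5 and VWA2 calls were each lost in 5 of the 12 alternatives, the ADD3 call in 1 and the PLEKHS1 call in 0.

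In M4 against M1, 18 of 109 members (16.5%) were called, 8 higher (7.34%) and 10 lower (9.17%). Over all 18431 genes tested the shares were 20.7%, 9.48% and 11.2%, and over protein-coding genes 22.3% were called, so the members' share was below both. In M3, 10 members were called (9.17%, 8 higher and 2 lower), against 13.5% of all genes, 8.02% higher and 5.51% lower. In M2, 2 members were called (1.83%, 1 higher and 1 lower), against 3.37%, 2.26% higher and 1.11% lower. DESeq2 called 21, 13 and 3 members, including all of edgeR's. Its share over all genes was not counted. Of the 109, 85 were called by edgeR in none of these 3 comparisons. The share of all genes called in none was not counted either, so the 85 are no measure of how stable the region was. With the libraries exchanged, 5 members were called in M4 (8.46% of all genes), 1 in M3 (1.19%) and 0 in M2, where 0 of 18431 genes were called and 2 members had an unadjusted p under 0.05. The 5 M4 members called under both assignments were NFKB2, LDB1, ADD3, PLEKHS1 and ELOVL3.

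The clearest rise was that of NFKB2, which encodes the p100 precursor of the p52 subunit of NF-kappa B. Its levels were 29.6 and 34.2 CPM for M1, 27.6 and 26.7 for M2, 46.7 and 38.3 for M3, and 129.9 and 135 for M4. The M4 libraries stood far above all others. The log2 fold change in M4 was 2.06 (SE 0.153, adjusted p = 2.22e-04), and it was called under each of the 12 alternatives, between 1.97 and 2.21. The gene lies 8.48 Mb from PDCD4.

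SFR1, a partner of SWI5 in repair by homologous recombination, rose along with the lines as labelled. It was 4.21 and 3.96 CPM for M1, 8.62 and 8.54 for M2, 11.8 and 9.04 for M3, and 13.3 and 14.4 for M4. Both M1 libraries were below all others, with log2 fold changes of 1.07, 1.35 and 1.76 (adjusted p = 0.0320, 0.00514 and 0.00123), called in M2, M3 and M4. SCD, the desaturase that makes monounsaturated fatty acids, was 1211 and 643 CPM for M1, 1858 and 1842 for M2, 2489 and 2156 for M3, and 2968 and 3121 for M4. The M4 change was 1.72 (SE 0.288, adjusted p = 0.00425) and the M3 change 1.33 (adjusted p = 0.0163), and M2 at 1.00 (adjusted p = 0.0884) was not called. M1 replicate 2 weighs on SCD, since without it the M3 value was 0.94 and not called, whereas without M1 replicate 1 the M2 value was 1.52 and called. Without M3 replicate 1, SCD in M3 was 1.23 with an adjusted p of 0.0518, with only the 2 lines compared 1.32 (adjusted p = 0.0730) and after the exchange 0.60, none called.

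Among the other M4 rises, SLF2, which brings the SMC5/6 complex to damaged DNA, was 13.3 and 12.4 CPM in M1 and 25.9 and 42.9 in M4 (log2 fold change 1.42, adjusted p = 0.00469). GRK5, a kinase that switches off G protein-coupled receptors, was 4.13 and 3.59 CPM in M1 and 8.40 and 11.4 in M4 (1.36, adjusted p = 0.00903). Without M4 replicate 2 the GRK5 value was 1.14 and not called (adjusted p = 0.0536). SFXN2, a sideroflexin of the mitochondrial membrane, was 4.001 and 2.98 CPM in M1 and 8.35 and 11.7 in M4 (1.52, adjusted p = 0.0111), and lost its call without M1 replicate 2 (1.33, adjusted p = 0.0555) and without M4 replicate 2 (1.28, adjusted p = 0.0693). With the libraries exchanged, SFR1, SCD, SLF2, SFXN2 and GRK5 had M4 values of 1.11, 0.99, 1.03, 0.91 and 0.81, with adjusted p from 0.104 to 0.274, and none was called. The remaining higher calls in M4, named after their values were seen, were CFAP58 and PLPP4. CFAP58, a cilium protein, was 0.326 and 0.134 CPM in M1 and 1.79 and 0.461 in M4, and was not called without either M1 library (3.08 and 1.79) or without M4 replicate 1 (1.00). PLPP4, a lipid phosphatase, was 0.326 and 0.329 CPM in M1 and 0.661 and 3.78 in M4, and was not called without either M1 library (2.75 and 2.76) or without M4 replicate 2 (1.03). Neither was called after the exchange (2.06 and 2.74, adjusted p = 0.122 and 0.0740) or with only the 2 lines compared (adjusted p = 0.109 and 0.0811).

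SEC31B, a coat protein of the vesicles that leave the endoplasmic reticulum, was the 1 member called lower in M2, M3 and M4 as labelled. RBM20, ACSL5 and VWA2 also had values below 0 in all of these lines, without a call in each. It was 12.7 and 14.1 CPM for M1, 3.09 and 3.53 for M2, 2.88 and 1.54 for M3, and 3.35 and 1.47 for M4. Both M1 libraries stood above all others. Its log2 fold changes were -2.02, -2.60 and -2.47 in M2, M3 and M4 (SE 0.447, 0.458 and 0.455, adjusted p = 0.0462, 0.00782 and 0.00615). The M2 calls of SEC31B and SFR1 were each lost without any 1 of the 4 libraries, at -2.11 to -1.92 and at 1.03 to 1.11. With the libraries exchanged, SEC31B was 0.16, -1.84 and -1.71 and SFR1 -0.04, 0.70 and 1.11 in M2, M3 and M4, none called. ENSG00000255339, a readthrough model whose exons overlap those of SEC31B by 1464 bases, was called lower in M4 at -1.45, and the reads of the pair cannot be kept apart. It lost its call without M1 replicate 2 (-1.30), without M4 replicate 2 (-1.11), with only the 2 lines compared (adjusted p = 0.0714) and after the exchange (-1.03, adjusted p = 0.214).

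SEMA4G, a class 4 semaphorin, was 1.79 and 3.42 CPM for M1, 1.27 and 1.36 for M2, 2.89 and 2.69 for M3, and 0.432 and 0.448 for M4, and fell in M4 alone by call (-2.56, SE 0.407, adjusted p = 0.00344). Its exons overlap those of MRPL43 by 1215 bases. LDB1, the cofactor that joins LIM-domain transcription factors, was 65.5 and 113.5 CPM for M1, 84.6 and 80.0 for M2, 56.1 and 45.2 for M3, and 30.8 and 40.5 for M4. Both M4 libraries were the lowest, at -1.33 (SE 0.268, adjusted p = 0.00879), although the value was -0.88 and under the fold threshold without M1 replicate 2, and -1.13 with an adjusted p of 0.0649 without M4 replicate 1. With the libraries exchanged SEMA4G was -1.79 (adjusted p = 0.0725) and LDB1 -1.07 (adjusted p = 0.0415).

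The largest falls in M4 belonged to members with few counts, named after their values were seen. PLEKHS1, a pleckstrin homology domain protein, was 0.979 and 6.05 CPM for M1, 1.12 and 1.08 for M2, 1.20 and 0.941 for M3, and 0.0529 and 0.0512 for M4, where 6 and 4 counts were left. The M4 libraries lay below all others, at -6.04 (SE 0.932, adjusted p = 0.00307), and the call held under each of the 12 alternatives, between -6.80 and -4.19. GFRA1, the co-receptor for GDNF, had 37 and 113 counts for M1, 5 and 6 for M2, 27 and 76 for M3, and 0 for both M4 libraries. It was at least 28.1-fold lower in M4 than in M1, with 3 counts per library as the floor, and was not called with the libraries exchanged (adjusted p = 0.119). VWA2, a matrix protein with von Willebrand A domains, had 16 and 14 counts for M1, 8 and 1 for M2, 3 and 1 for M3 and 0 for both M4 libraries, at least 5.61-fold lower, and its call was lost without any 1 of the M1 or M4 libraries, when its adjusted p was 0.0606 to 0.0978, and after the exchange (adjusted p = 0.0951). ELOVL3, an elongase of very long fatty acids, was 0.906 and 0.232 CPM in M1 and 0.0705 and 0.128 in M4 (-2.53, adjusted p = 0.0327), and was -1.22 without M1 replicate 1, -2.13 without M4 replicate 1 and -2.97 without M4 replicate 2, none of them called, nor was it called with only the 2 lines compared (adjusted p = 0.0902).

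**Figure D4:**
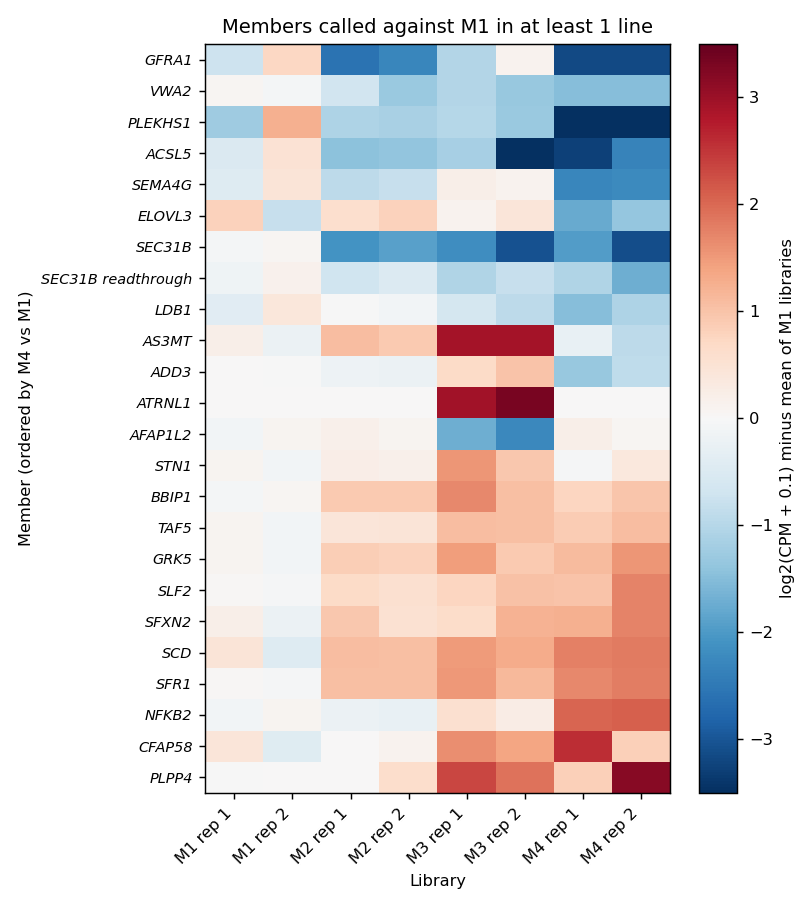
Colours give log2(CPM + 0.1) minus the mean of the M1 libraries for the 24 members called against M1 in at least 1 line (rows, ordered by the M4 change), in each of the 8 libraries (columns). NFKB2 is raised in M4, AFAP1L2 is lowered in M3, AS3MT and ATRNL1 are raised in M3, and SEC31B is lowered in M2, M3 and M4.

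Several members differed between the carcinoma lines M3 and M4, a comparison of levels that involves no M1 or M2 library, although the estimate of the spread draws on all 8. Here 14 members were called (12.8%, 5 higher and 9 lower in M4), against 10.3% of all genes (3.99% higher and 6.3% lower) and 11.5% of protein-coding genes. AFAP1L2, an adaptor protein that binds SRC family kinases, was 8.54 and 9.93 CPM for M1, 10.4 and 9.78 for M2, 2.77 and 1.86 for M3, and 10.6 and 9.66 for M4. Only the M3 libraries were low. The log2 fold change was -2.00 in M3 against M1 (SE 0.258, adjusted p = 0.00257), -2.12 in M3 against M2 (adjusted p = 0.00569) and 2.13 in M4 against M3 (adjusted p = 0.00366). It was called in M3 against M1 and in M4 against M3 under all alternatives, the exchange of libraries included, and in M3 against M2 the call was lost without M2 replicate 1 (-2.08) or M2 replicate 2 (-2.16).

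AS3MT, the methyltransferase that handles arsenic, showed the reverse, with 0.145 and 0.0854 CPM for M1, 0.354 and 0.299 for M2, 1.49 and 1.504 for M3, and 0.0793 and 0.0128 for M4. It was high in M3 alone, at 3.68 against M1 (adjusted p = 0.00953, and 2.57 with an adjusted p of 0.188 with the libraries exchanged), and M4 was -4.89 against M3 (SE 0.736, adjusted p = 0.00714). The readthrough BORCS7-ASMT covers 2326 bases of its exons and has no row in the table. ATRNL1, an attractin-like protein named after its values were seen, had 53 and 78 counts in M3 and 0 in the other 6 libraries, at least 21.5-fold higher than in M1. Its M3 call against M1 was lost without either M3 library (adjusted p = 0.0550 and 0.0808) and with the libraries exchanged (adjusted p = 0.0717), and its M4 call against M3 was lost without any 1 of the M3 or M4 libraries. ADD3 (-1.94, SE 0.183, adjusted p = 0.00161) and SEMA4G (-2.66, adjusted p = 0.00761) were lower in M4 than in M3. The SEMA4G call was lost without M4 replicate 1 (-2.63, adjusted p = 0.0569). NFKB2 was higher in M4 than in M3, by 1.64 (SE 0.151, adjusted p = 0.00159).

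The remaining calls between M3 and M4 were also named after their values were seen. CCDC186, a coiled-coil protein of dense-core vesicle formation, was 39.1 and 26.5 CPM for M1, 21.4 and 22.6 for M2, 18.4 and 18.04 for M3, and 32.6 and 43.0 for M4. It was lowest in M3 and higher in M4 by 1.05 (SE 0.219, adjusted p = 0.0189), but the call was lost without any 1 of the M3 or M4 libraries (0.85 to 1.24). C10orf95 was higher in M4 than in M3 by 1.22 (SE 0.337, adjusted p = 0.0459), and its call was lost in the same 4 cases (0.93 to 1.56) and with only the 2 lines compared (adjusted p = 0.0747). MFSD13A, a member of the major facilitator family of transporters, was 5.70 and 5.66 CPM for M3 and 2.56 and 2.42 for M4, and the change of -1.19 (SE 0.247, adjusted p = 0.0190) was not called without either M4 library or with only the 2 lines compared (adjusted p = 0.0627). PLEKHS1 was lower in M4 than in M3 by call (-4.32, adjusted p = 0.0185), except without M3 replicate 1 or either M4 library. GFRA1 was at least 18.7-fold lower in M4 than in M3, and its call was lost without M4 replicate 1 (adjusted p = 0.0649). After the exchange of libraries PLEKHS1 was still called and CCDC186, C10orf95, MFSD13A and GFRA1 were not (adjusted p = 0.0904, 0.104, 0.0822 and 0.0975). ELOVL3 completes the 14, at -2.61 (adjusted p = 0.0465).

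STN1, a subunit of the CST complex at telomeres, was 36.5 and 32.4 CPM for M1, 40.3 and 38.8 for M2, 100.8 and 66.0 for M3, and 33.7 and 44.3 for M4. Both M3 libraries were above all others, at 1.28 against M1 (adjusted p = 0.00796), 1.08 against M2 (adjusted p = 0.0355) and, for M4 against M3, -1.10 (adjusted p = 0.0178). Without M3 replicate 1 these were 0.95, 0.74 and -0.77, none called. The last was also lost without M4 replicate 1 (-0.91), and M3 against M2 without either M2 library (1.11 and 1.05). After the exchange none of the 3 was called (adjusted p = 0.0885, 0.0782 and 0.0527), with total counts the values against M2 and of M4 against M3 were 0.99 and -0.96, and with only the 2 lines compared M3 against M2 had an adjusted p of 0.0602. OGA, which removes O-GlcNAc from proteins, was 141 and 149 CPM for M1, 117 and 112 for M2, 91.6 and 85.2 for M3, and 182 and 213 for M4. It was lowest in M3 and highest in M4, at 1.16 for M4 against M3 (SE 0.136, adjusted p = 0.00333). In M3 against M2, 4 members were called (3.67%), against 4.15% of all genes (2.95% higher and 1.2% lower), namely AFAP1L2 lower and ADD3, STN1 and ATRNL1 higher. ADD3 at 1.02 lost this call without M2 replicate 1 (1.04), M2 replicate 2 (1.01) and M3 replicate 2 (0.86), with total counts for scaling (0.96) and after the exchange (0.94, adjusted p = 0.0973). ATRNL1 in M3 against M2 lost its call without any 1 of the 4 libraries (adjusted p = 0.105 to 0.164), under a replicate block (adjusted p = 0.0577) and after the exchange (adjusted p = 0.0826). TAF5, a subunit of the general transcription factor TFIID, was 5.72 and 4.95 CPM in M1 and 11.4 and 11.2 in M3 (1.08, adjusted p = 0.00962). It was not called without M1 replicate 2 (0.98), with only the 2 lines compared (adjusted p = 0.0678) or after the exchange (0.80, adjusted p = 0.215). GRK5 in M3 was 1.22 (adjusted p = 0.0190), and lost its call without M1 replicate 2 (1.13), without M3 replicate 1 (0.93), with only the 2 lines compared (adjusted p = 0.0792) and after the exchange (0.68, adjusted p = 0.455).

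Grouped by what they are known to do, 96 of the 135 members fell into 7 lists. Their counts in M4 stand beside 20.7% of all genes called and 43.2% of all genes with an unadjusted p under 0.05, a share that was 49.5% over the 109 tested members. Of 20 listed genes of lipid, mitochondrial and redox metabolism, 18 were tested, and in M4 2 rose (SCD and SFXN2) and 2 fell (ACSL5 and ELOVL3), with a median of -0.01 that became 0.05 after the exchange, when ELOVL3 alone was called. Of 14 adhesion, matrix and cytoskeleton genes, 11 were tested, 0 rose and 2 fell (ADD3 and VWA2), with a median of 0.02. DESeq2 also called 2 of these 11, and 6 had an unadjusted p under 0.05. After the exchange the median of this list was -0.05 and ADD3 alone was called. COL17A1, the collagen that anchors basal cells to their matrix, was in this list at 432 and 897 CPM in M1 and 713 and 708 in M4, a value of 0.10 that became -0.32 without M1 replicate 1. Of 15 transcription factors and cofactors, 9 were tested, NFKB2 rose and LDB1 fell, and both were called after the exchange. Of 14 receptors, ligands and signal modulators, 11 were tested, GRK5 rose and SEMA4G and GFRA1 fell, with a median of 0.42, which became 0.29 after the exchange, with none of them called.

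The 9 tested of 10 genes of cell death, DNA repair and chromosome maintenance were all above 0 in M4, with a median of 0.67 against 0.02 over all coding genes. Of all tested members 58.7% were above 0, and of all tested coding genes 51.2%. The 9 genes were measured in the same libraries and are not independent of each other. After the exchange 8 of the 9 were above 0, with a median of 0.43 and 0 called. Of these SFR1 alone was called, by edgeR and by DESeq2, and 5 had an unadjusted p under 0.05. The 9 genes of RNA processing, ribosome and translation had a median of 0.38. Of them 0 were called by either tool and 4 had an unadjusted p under 0.05. The 14 genes of vesicle traffic and cilia had a median of 0.37, with 0 higher and SEC31B lower by both tools, and 7 with an unadjusted p under 0.05. After the exchange the medians of these last 2 lists were 0.40 and 0.32, with 0 called.

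Levels between genes were compared per kb of exon, as CPM per kb averaged over all 8 libraries. SCD was the highest member at 388 CPM per kb, followed by ATP5MK, a small subunit of the mitochondrial ATP synthase, at 111.6 and COL17A1 at 106. PDCD4 was at 28.4 on the same scale. ATP5MK was 103 and 76.6 CPM in M1 and 71.0 and 100.7 in M4, so the lines overlapped, with -0.07 in M4 (SE 0.222).

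Promoter windows of RefSeq (GRCh38.p14, from 250 bases before to 50 bases after the start) were found for 119 of the 135 members. The first window listed was taken, 1 per symbol, so any other start of a gene was not counted. Promoters rich in CpG, the dinucleotide that DNA methylation acts on in human cells, are typical of broadly expressed genes. The motif searched was CG, which reads the same on both strands, and 95.8% of all 27305 windows hold at least 1. The members' median was 21 CpG per window, against 14 over all windows. It was 22.5 in the 96 tested members and 14 in the 23 untested ones. The 7 matched members called higher in M4 had a median of 25, and the 9 called lower 11, with ranges of 4 to 38 and 1 to 30 that overlap. These counts describe sequence only, and no methylation was measured in these files.

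The windows of PDCD4 and of 3 members are printed. SEC31B and PLEKHS1 have the most and the fewest CpG, 30 and 1, of the 9 matched members called lower in M4. They are the ends of that range and not typical of it. SFXN2 shows a start shared by a neighbouring pair. Each window reads from 5′ to 3′ on the gene's own strand, with CG in capitals. PDCD4 lies at chr10:110871678-110871977 on the plus strand, SEC31B at chr10:100519812-100520111 on the minus strand, SFXN2 at chr10:102714386-102714685 on the plus strand and PLEKHS1 at chr10:113751432-113751731 on the plus strand.
PDCD4: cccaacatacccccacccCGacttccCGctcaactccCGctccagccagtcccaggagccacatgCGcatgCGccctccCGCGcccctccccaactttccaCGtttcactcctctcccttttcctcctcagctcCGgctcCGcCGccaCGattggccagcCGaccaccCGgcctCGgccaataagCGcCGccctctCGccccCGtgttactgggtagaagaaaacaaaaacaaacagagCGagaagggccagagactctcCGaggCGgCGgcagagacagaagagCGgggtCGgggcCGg
SEC31B: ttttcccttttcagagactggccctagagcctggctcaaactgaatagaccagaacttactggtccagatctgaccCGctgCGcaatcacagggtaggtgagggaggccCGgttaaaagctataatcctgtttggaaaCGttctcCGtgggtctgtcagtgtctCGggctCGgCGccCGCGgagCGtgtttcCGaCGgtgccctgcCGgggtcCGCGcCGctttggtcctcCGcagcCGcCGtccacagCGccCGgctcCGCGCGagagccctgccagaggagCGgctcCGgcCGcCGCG
SFXN2: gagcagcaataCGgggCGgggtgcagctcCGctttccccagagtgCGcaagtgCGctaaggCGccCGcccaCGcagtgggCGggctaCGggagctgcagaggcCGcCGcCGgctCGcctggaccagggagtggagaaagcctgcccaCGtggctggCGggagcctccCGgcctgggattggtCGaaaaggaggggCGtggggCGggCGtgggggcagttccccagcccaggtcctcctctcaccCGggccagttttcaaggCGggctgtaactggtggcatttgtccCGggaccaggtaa
PLEKHS1: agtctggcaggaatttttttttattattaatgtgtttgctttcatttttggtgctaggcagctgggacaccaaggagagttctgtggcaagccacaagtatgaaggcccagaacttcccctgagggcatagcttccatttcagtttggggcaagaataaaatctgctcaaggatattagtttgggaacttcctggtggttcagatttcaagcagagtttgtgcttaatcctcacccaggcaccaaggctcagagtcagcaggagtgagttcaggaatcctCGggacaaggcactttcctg
PDCD4 has 26 CpG in its window, a number that 29.8% of all windows reach or exceed. SEC31B, which fell by 2.47 on the log2 scale in M4, has 30 (22.1% of all windows), and PLEKHS1, which fell by 6.04, has 1.

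SFXN2, with 24 CpG (33.7% of all windows), shares 262 of its 300 bases with the window of ARL3, a small GTPase of cilia that is read from the opposite strand. The starts of this pair are 239 bases apart in the GRCh37 annotation. ARL3 was 19.7 and 22.6 CPM for M1, 23.8 and 23.7 for M2, 28.0 and 15.9 for M3, and 13.5 and 14.8 for M4. In M4 it was -0.58 (SE 0.254, adjusted p = 0.121, and -0.62 after the exchange), not called, while SFXN2 was called at 1.52. In all, 8 such head-to-head pairs with starts within 1 kb involved a member, 7 with both genes as members. In M4 the genes of a pair had values of the same sign in 5 of 8, and SFXN2 was the 1 gene called among them. BBIP1 and SHOC2, with starts 424 bases apart, are one of them, at 0.87 and 0.40 in M4.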

How the data were processed

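The authors trimmed paired-end poly A+ reads with Trimmomatic, aligned them to hg19 (GRCh37) with STAR, took mapping statistics with Picard and deposited RSEM expected counts per gene on GENCODE release 19. Versions and strand use are not given in the sources used here. The deposited expected counts are not normalized, and 12.8% are not whole; they were rounded. Member positions came from GENCODE release 44 on GRCh37; BORCS7-ASMT and PNLIPRP2 had no row. Samples were grouped by their labels.

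The edgeR 4.0.16 quasi-likelihood F test (robust, TMM, filterByExpr, 1 coefficient per line, all 8 libraries, R 4.3.3) was fitted to the whole table, with Benjamini-Hochberg adjustment over 18431 genes. A call needed an adjusted p under 0.05 and an absolute log2 fold change above 1. The study describes the replicates as biological replicates of 1 line, so p-values measure the spread between such libraries. All lines share 1 estimate of this spread, although the M2 libraries lay closest together (rho 0.998). CPM used TMM library sizes. At the depth of the smallest library, 1 count is 0.0142 CPM. Standard errors (SE) were derived from the log2 fold change and its F statistic. DESeq2 1.42.0 was an alternative. Python 3.11.15, pandas 2.3.3, numpy 2.4.6 and matplotlib 3.10.9 did the rest. The fit was tested on simulated data.

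The members, role lists and alternatives were chosen with earlier results of these data known, and the lists came from general knowledge. Genes were named by rule: PDCD4, PDCD4-AS1, RBM20 and BBIP1, the 5 nearest tested members on each side, the largest calls with at least 100 counts in each library of the higher line and the same direction in both replicates, the 3 highest per kb, and role list examples. Others are marked. Alternatives were other scaling, DESeq2, other filters, a replicate block, only the 2 lines compared, exchanged libraries, leaving out each library, no fold threshold, the transcription start as gene start and the study's 2-fold rule on CPM + 0.001.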

Additional observations from a re-analysis of the deposited data

Results flagged for a closer look

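The M4 against M3 test is the test of the difference between the changes of M3 and M4 from M1, and 14 members passed it (edgeR, adjusted over all genes). For 5 of them the changes from M1 had opposite signs and at least 1 was called. The log2 difference of M4 from M3 was -4.89 for AS3MT (3.68 in M3 and -1.21 in M4 against M1, adjusted p = 0.00714), -2.66 for SEMA4G (0.10 and -2.56, adjusted p = 0.00761) and -2.61 for ELOVL3 (0.09 and -2.53, adjusted p = 0.0465). ADD3 differed by -1.94 (0.84 and -1.09, adjusted p = 0.00161) and AFAP1L2 by 2.13 (-2.00 and 0.14, adjusted p = 0.00366). In each of these 5 both libraries of one line lay outside the range of the other. ELOVL3 rests on few counts, 8 and 10 in the M4 libraries, and lost its call without any 1 of the 4 libraries of M3 and M4, with values from -3.06 to -2.22, after the exchange (adjusted p = 0.0953) and with total counts (adjusted p = 0.0569).

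Of the other 9, NFKB2 differed by 1.64 (0.41 and 2.06 against M1), OGA by 1.16 (-0.72 and 0.44), C10orf95 by 1.22 (-0.19 and 1.03), CCDC186 by 1.05 (-0.85 and 0.20), MFSD13A by -1.19 (0.49 and -0.70), STN1 by -1.10 (1.28 and 0.18) and PLEKHS1 by -4.32 (-1.71 and -6.04). ATRNL1 and GFRA1 had 0 counts in both M4 libraries, so their fitted values of -9.09 and -8.73 depend on the prior count and are no measure of size.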

How the results depend on the processing

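Counts of called members (2, 10, 18, 4 and 14 in M2, M3 and M4 against M1, M3 against M2 and M4 against M3) became 0, 1, 5, 1 and 8 with the 2 libraries exchanged. The shares of all genes called were then 0%, 1.19%, 8.46%, 1.16% and 4.5%. With no fold threshold 4 of 109 members passed in M2, 19 in M3 and 36 in M4, beside 891, 3918 and 5779 of all 18431 genes. Without the low-count filter the counts of members were 7 in M2, 16 in M3 and 8 in M3 against M2, and with total counts 2 in M3 against M2. Leaving out 1 library in turn gave 0 to 3, 9 to 13, 12 to 21, 0 to 2 and 5 to 13. Where the count was 0, in M2 with the libraries exchanged, 2 members had an unadjusted p under 0.05. Shares over all genes were not counted without the low-count filter, with total counts, with a library left out or under the replicate block.

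The member median moved in M4 against M3 to 0.23 with total counts, and leaving out 1 library gave -0.020 to 0.23 in M4 against M1 and -0.10 to 0.25 in M4 against M3. Members at or below PDCD4 numbered 24 in M2 and 11 in M3 without the filter, 7 in M2 and 5 in M4 with the libraries exchanged, and 11 to 44 in M2, 5 to 11 in M3 and 5 to 10 in M4 with 1 library left out. Single values changed sign with the exchange in M2 for SEC31B (0.16), SFR1 (-0.038) and SCD (-0.30). In M4 SMNDC1 was 0.015 with total counts, and with 1 library left out SMNDC1 ranged from -0.23 to 0.16, VTI1A from -0.084 to 0.14 (-0.020 without M4 replicate 2) and COL17A1 from -0.32 to 0.72. The cause was not tested.

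Replicate numbers did not pair the samples (deviations correlated between -0.02 and 0.12 across lines), and a replicate block gave 3, 10, 16, 3 and 14 calls. Under the block ATRNL1 in M3 against M2 (adjusted p = 0.0577), ACSL5 in M4 against M1 (adjusted p = 0.0727) and ELOVL3 in M4 against M1 (0.0542) and against M3 (0.0641) lost their calls; the other named calls were kept. With only the 2 lines compared, 10 named calls were lost, and with total counts 4. Low-count members such as GFRA1, VWA2 and ELOVL3 are limited by depth.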
